A study of Mus musculus with 12 samples.

Results

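The 52 genes described here encode proteins that act in G2 phase and mitosis: condensins, cyclins and their phosphatases, mitotic kinases, checkpoint and kinetochore proteins, spindle motors, sister-separation factors and cytokinesis proteins. They were chosen by gene symbol from the count table, which lists 56748 genes, and each symbol matched 1 row. All 52 lay among the 37542 rows used, and all 52 passed the low-count filter that left 12261 genes for testing. The cells were mouse bone-marrow-derived macrophages (BMDMs), grown from marrow of C57BL/6N mice for 7 days in medium conditioned by L929 fibroblasts. Such medium carries the macrophage growth factor M-CSF, and BMDMs keep dividing in it. There were 4 groups of 3 libraries: Alpk1 knockout (KO) cells with ADP-Hep, KO cells with PBS, wild-type (WT) cells with ADP-Hep and WT cells with PBS. ADP-Hep was given at 100 µM, and both treatments lasted 4 h. ADP-Hep (ADP-heptose) is a bacterial sugar nucleotide, and ALPK1 is the kinase that binds it. The design asks which changes after ADP-Hep need Alpk1.

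Genes of G2 and mitosis are transcribed late in the cell cycle. Their promoters often carry a cell cycle genes homology region (CHR), bound by the MuvB core of the DREAM and MYBL2-MuvB complexes, and CCAAT boxes, bound by NF-Y. DREAM holds these genes low in resting cells, and B-MYB and FOXM1 raise them before mitosis. In the sequences below, CHR was searched as TTTGAA or TTCGAA and the CCAAT box as CCAAT, on both strands, and a base could belong to a match of each kind. RefSeq promoters (GRCm38.p6, 250 bases before to 50 after each start) were found for 44 of the 52 genes, 47 promoters in all. A CHR match lay in 80.9% of these 47 promoters, against 19.2% of all 32851 promoters of the table. A CCAAT match lay in 76.6% of them, against 37.4% of all promoters, and both kinds lay in 70.2%, against 7.5%. A match describes the letters and is not a shown binding site.

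A few promoters are printed 5′ to 3′ on the gene's own strand, with CHR and CCAAT matches in capitals. Cdc25b (chr2:131186698-131186997, plus strand), Kif23 (chr9:61946750-61947049, minus strand) and Ttk (chr9:83834439-83834738, plus strand) are shown as examples of genes that fell by more than 0.5 on the log2 scale in WT cells under ADP-Hep. Others that fell by more than 0.5 are not printed. Among these, Ncapd2, Bub1b and Kif22 held both motifs, Kif15 and Kif20b held only CHR, and Ncaph held neither. Cdk1 (chr10:69352863-69353162, minus strand) is shown as a gene that was not called in any comparison. Prc1 (the first of its annotated starts, chr7:80294201-80294500, plus strand) and Pttg1 (chr11:43425932-43426231, minus strand) are shown as genes that rose. Pttg1 held neither motif in this window, which lies inside the annotated span of the gene (chr11:43420250-43426251). Sequence before the 5′ end of that span was not searched. The windows of Cdca3, Cdca8, Kif2c, Kif4 and the later start of Bub3 also lie inside their genes.
Cdc25b: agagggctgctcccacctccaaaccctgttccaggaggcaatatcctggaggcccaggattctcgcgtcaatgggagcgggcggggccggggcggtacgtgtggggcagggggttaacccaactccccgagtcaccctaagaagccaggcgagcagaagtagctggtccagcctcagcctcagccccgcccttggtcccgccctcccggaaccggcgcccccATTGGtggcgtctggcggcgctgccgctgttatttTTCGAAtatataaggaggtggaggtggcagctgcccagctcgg
Kif23: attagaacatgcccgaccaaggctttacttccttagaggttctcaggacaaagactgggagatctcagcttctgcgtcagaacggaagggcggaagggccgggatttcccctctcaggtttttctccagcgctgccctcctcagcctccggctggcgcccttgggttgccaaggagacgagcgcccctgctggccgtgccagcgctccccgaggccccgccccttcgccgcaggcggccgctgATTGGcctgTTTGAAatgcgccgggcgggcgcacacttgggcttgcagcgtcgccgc
Ttk: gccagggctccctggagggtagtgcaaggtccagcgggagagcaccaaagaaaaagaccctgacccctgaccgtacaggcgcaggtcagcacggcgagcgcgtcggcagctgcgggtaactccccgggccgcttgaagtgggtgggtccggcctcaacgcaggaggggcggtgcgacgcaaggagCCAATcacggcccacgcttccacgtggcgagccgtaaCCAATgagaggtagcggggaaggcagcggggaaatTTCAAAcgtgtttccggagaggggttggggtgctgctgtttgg
Cdk1: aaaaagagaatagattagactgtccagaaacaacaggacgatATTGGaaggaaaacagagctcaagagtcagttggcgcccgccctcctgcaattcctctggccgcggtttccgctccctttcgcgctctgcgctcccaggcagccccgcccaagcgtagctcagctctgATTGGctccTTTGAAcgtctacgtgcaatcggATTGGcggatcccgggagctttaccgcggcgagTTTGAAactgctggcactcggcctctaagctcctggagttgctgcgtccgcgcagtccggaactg
Prc1: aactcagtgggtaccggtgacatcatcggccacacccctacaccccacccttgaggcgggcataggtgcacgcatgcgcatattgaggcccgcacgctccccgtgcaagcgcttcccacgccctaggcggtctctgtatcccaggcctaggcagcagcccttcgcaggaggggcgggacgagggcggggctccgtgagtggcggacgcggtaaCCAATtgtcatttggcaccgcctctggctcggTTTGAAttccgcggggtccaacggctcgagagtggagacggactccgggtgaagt
Pttg1: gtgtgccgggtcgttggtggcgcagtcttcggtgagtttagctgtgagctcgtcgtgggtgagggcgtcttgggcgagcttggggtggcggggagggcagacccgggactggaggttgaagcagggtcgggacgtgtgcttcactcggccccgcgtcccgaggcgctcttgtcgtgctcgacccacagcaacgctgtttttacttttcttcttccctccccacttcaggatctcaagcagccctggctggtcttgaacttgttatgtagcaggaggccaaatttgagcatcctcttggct

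**Figure D1:**
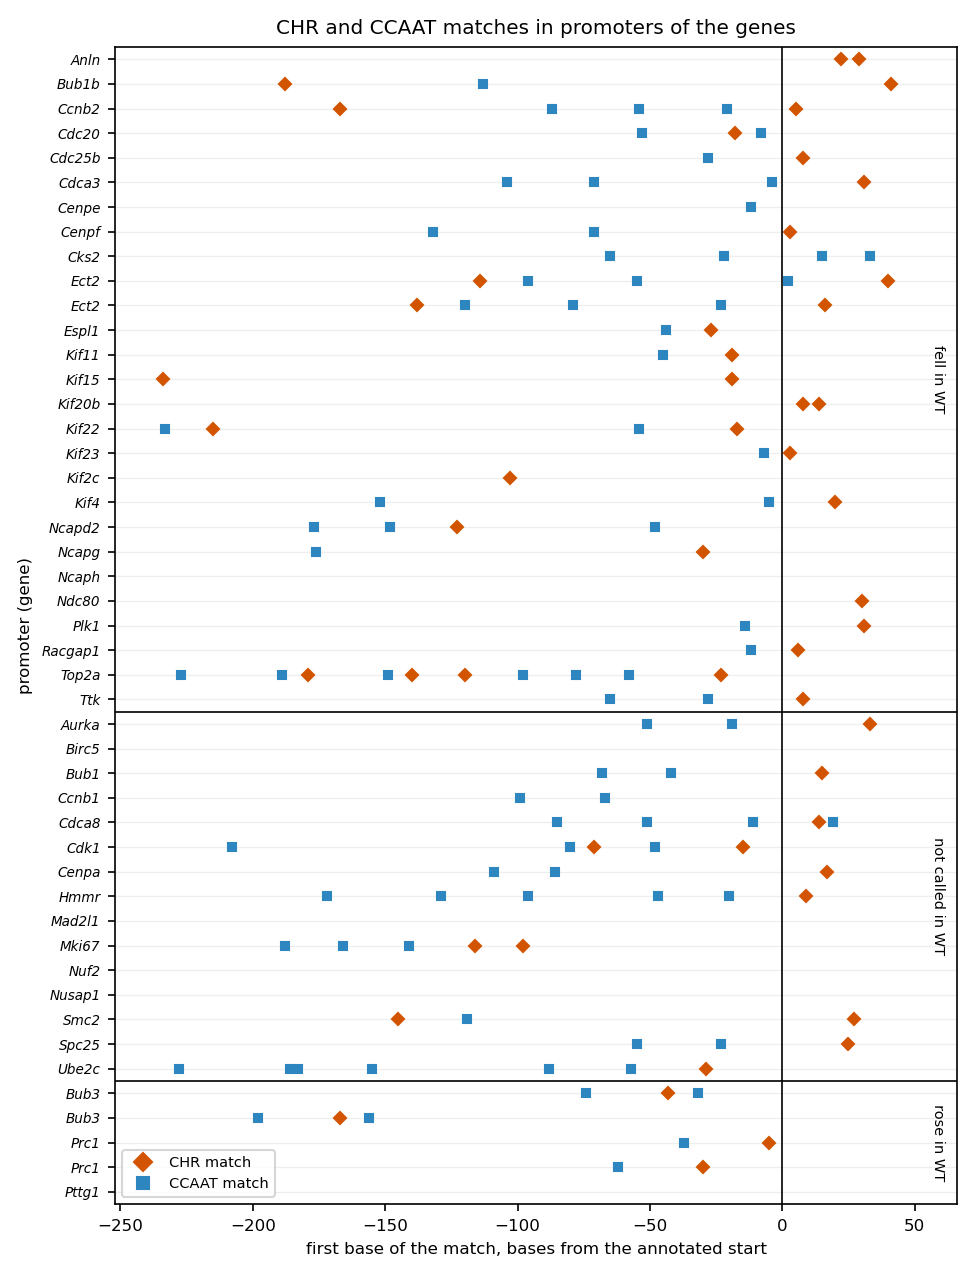
Positions of CHR matches (diamonds) and CCAAT matches (squares) in the 47 RefSeq promoters of 44 genes; the x axis is the first base of the match in bases from the annotated start. Rows are grouped by the gene's call in WT cells under ADP-Hep, and a row with no marker had no match.

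CHR was more frequent among genes that fell in WT cells after ADP-Hep than among the others, and CCAAT was about as frequent; neither difference was tested. Of 27 promoters of genes called lower in WT cells, 88.9% held CHR and 77.8% held CCAAT. Of the 20 promoters of the other genes, 70.0% held CHR and 75.0% held CCAAT. Both motifs together were in 70.4% of the first and 70.0% of the second. Ncaph, which fell, and Pttg1, which rose, were both among the 6 genes with neither motif, along with Birc5, Mad2l1, Nuf2 and Nusap1. For Pttg1 this covers only a window inside the gene.

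The libraries held 16110654 to 31333973 counts, of which 12307826 to 25742912 lay in the rows used. Levels are CPM, counts scaled to the library size after TMM correction. Alpk1 RNA was 21.6, 19.2 and 22.5 CPM in KO cells with ADP-Hep and 22.3, 20.3 and 21.3 CPM in KO cells with PBS, against 53.8, 55.3 and 52.3 CPM in WT cells with ADP-Hep and 30.1, 32.1 and 25.9 CPM in WT cells with PBS. All KO libraries were below all WT libraries, though counts summed over all exons cannot show which part is missing. Macrophage markers were high in every library (Csf1r averaged 2567 ± 71.0 CPM in KO ADP-Hep, 2477 ± 96.2 in KO PBS, 2688 ± 144 in WT ADP-Hep and 2318 ± 32.8 in WT PBS; SD, n = 3 each). Lymphoid, erythroid and fibroblast marker lists each summed to at most 2.52 CPM in any library.

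Mitotic RNA was plentiful in all groups. The gene means over 12 libraries ran from 8.79 CPM for Cks2 to 846 CPM for Mki67, with a median of 78.2 CPM. Mki67 and Top2a together made up 24.5% of the summed CPM. Per kilobase of exon, Mki67 (84.1 CPM per kb), Top2a (55.3 CPM per kb), Ccnb2 (53.6 CPM per kb) and Smc4 (46.0 CPM per kb) were the highest. Cdc25c was the lowest, at 2.39 CPM per kb. No gene had fewer than 100 counts in any library.

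**Figure D2:**
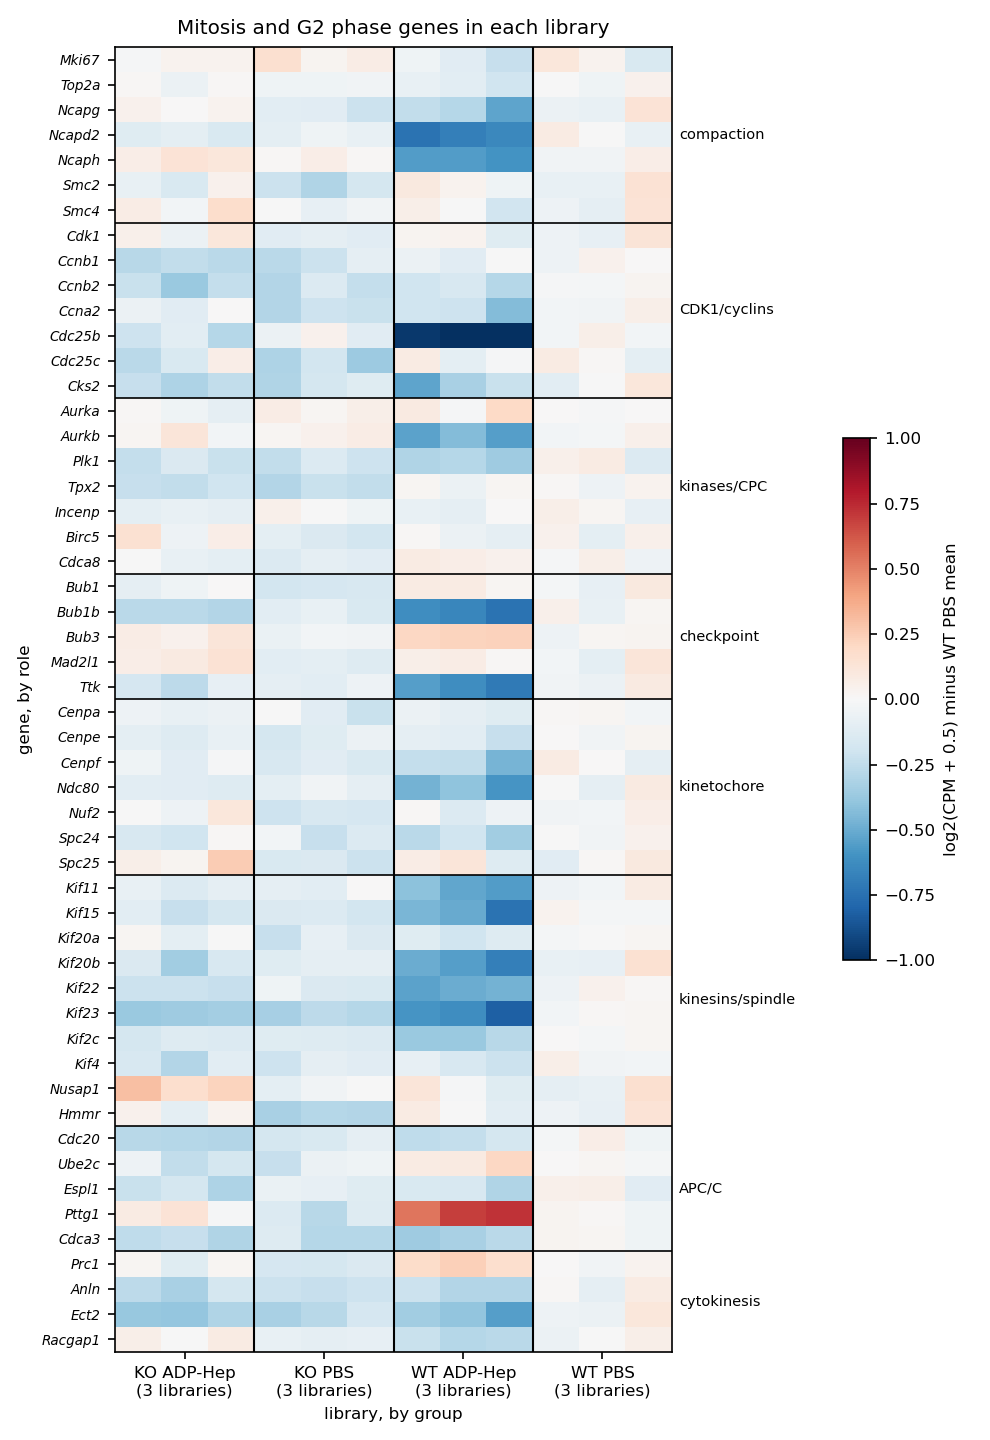
Level of each of the 52 genes (rows, by role) in each of the 12 libraries (columns, by group), as log2(CPM + 0.5) minus the gene's mean over the 3 WT PBS libraries. Blue is lower and red higher; the WT ADP-Hep columns hold the deepest blue (Cdc25b, Ncapd2) and the deepest red (Pttg1).

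After 4 h of ADP-Hep, WT cells held less RNA of many mitotic genes, but unevenly. Of the 52 genes, 30 fell and 3 rose, and 19 were not called, by edgeR's quasi-likelihood test at a Benjamini-Hochberg adjusted p under 0.05. The falls covered 57.7% of the genes, against 31.6% of all 12261 genes tested; the rises covered 5.8%, against 31.9%. The median log2 change was -0.17, against -0.01 for all genes tested; with library totals as the only scaling it was -0.28, against -0.12. Sizes were modest: 11 of 52 changed by at least 0.5 on the log2 scale and 1, Cdc25b, by at least 1. Their summed level was 5111 ± 190.2 CPM with ADP-Hep and 5822 ± 72.1 CPM with PBS (SD, n = 3 each), or 87.8% of the PBS level. Against a 1.5-fold threshold (edgeR glmTreat) 2 of the 52 genes were called lower, a smaller share than the 8.60% of all genes. Higher calls numbered 0, against 8.83% of all genes. At an unadjusted p under 0.05 by glmTreat, 4 were lower and 0 higher. In bulk RNA, fewer cells in G2 or mitosis and less RNA per such cell cannot be told apart.

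Markers of other cells also differed between these groups, and their part in the result was not tested. The 11 myeloid progenitor markers summed to 15.4 to 17.5 CPM in WT cells with ADP-Hep and to 33.6 to 36.5 CPM in WT cells with PBS; of the 7 that were tested, 3 fell and 1 rose. Most of that difference was Sox4 (1.60 ± 0.278 CPM with ADP-Hep and 18.7 ± 0.547 CPM with PBS); the progenitor receptor Kit was under 1 CPM on average in all 4 groups. Of 7 tested neutrophil markers 3 rose and 2 fell, with a median log2 change of 0.29. The 2 that fell, Csf3r (-0.58) and Mmp8 (-0.36), were the most abundant, and the list of 9 summed to 294 to 310.3 CPM with ADP-Hep and 316 to 346 CPM with PBS. Of 11 macrophage markers 6 rose and 3 fell, and they summed to 29752 to 30759 CPM with ADP-Hep and 25614 to 27528 CPM with PBS. Mitochondrial transcripts summed to 16139 to 20536 CPM with ADP-Hep and 14921 to 16107 CPM with PBS.

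Chromosome compaction genes did not move as one. Condensin I, the ring that compacts mitotic chromosomes, has the core subunits SMC2 and SMC4 and the regulatory subunits NCAPD2, NCAPG and NCAPH. The regulatory subunit gene Ncapd2 (ENSMUSG00000038252, chr6:125168007-125191701 on the minus strand in mm10) had 116, 121 and 124 CPM with ADP-Hep and 206, 194 and 184 CPM with PBS. The groups did not overlap, and the log2 change was -0.69 ± 0.05 (± SE here and below; edgeR adjusted p = 1.9e-12). Ncaph had 47.6, 47.4 and 46.1 CPM with ADP-Hep and 68.3, 68.6 and 73.7 CPM with PBS (log2 change -0.58 ± 0.05, edgeR adjusted p = 3.1e-10). Ncapg also fell, by less (-0.35 ± 0.07). Exons of Ncapg overlap Lcorl on the other strand over 13.4% of their bases. Those of Ncapd2 overlap Scarna10 (3.8%) and Gm28967 (3.7%) on the same strand. The core subunits were not called: Smc2 had 209, 200.0 and 189 CPM with ADP-Hep and 186, 186 and 216 CPM with PBS, and Smc4 had 249, 239 and 209 CPM with ADP-Hep and 232, 226 and 264 CPM with PBS. For both, the libraries of the groups overlapped. The SMC subunits are shared with condensin II, and its subunit gene Ncapg2 fell to 75.5 ± 6.38 CPM with ADP-Hep, against 161 ± 7.82 CPM with PBS. The other condensin II genes, Ncapd3 and Ncaph2, were lower with ADP-Hep by less.

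The common proliferation markers changed little. Mki67, which encodes the Ki-67 chromosome surfactant, had 822, 783 and 720.5 CPM with ADP-Hep and 918, 869.6 and 761 CPM with PBS. These libraries overlapped, and the change of -0.13 ± 0.06 was not called (edgeR adjusted p = 0.056). Top2a, the DNA decatenating enzyme, had 488, 477 and 447 CPM with ADP-Hep and 513, 498 and 530.4 CPM with PBS. It was called lower (-0.13 ± 0.04, edgeR adjusted p = 0.015).

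Among CDK1, its cyclins and activators, 4 of 7 fell. The largest change of all 52 genes was that of Cdc25b (ENSMUSG00000027330, chr2:131186949-131198497 on the plus strand in mm10), the phosphatase that starts CDK1 activation. It had 53.4, 50.9 and 50.3 CPM with ADP-Hep and 103, 109 and 102 CPM with PBS. The fold was 0.494, with no overlap between the groups (log2 change -1.02 ± 0.06, edgeR adjusted p = 2.5e-14). Its relative Cdc25c, which sustains CDK1 activation, was not called (0.00 ± 0.10). Nor were Cdk1 itself, with 90.2, 90.5 and 81.3 CPM with ADP-Hep and 85.2, 83.5 and 96.8 CPM with PBS, or Ccnb1 (cyclin B1, -0.06 ± 0.05). Cyclin A2 (Ccna2) fell by a modest amount: it had 140.4, 139 and 119 CPM with ADP-Hep and 158, 157 and 168 CPM with PBS (log2 change -0.27 ± 0.06, edgeR adjusted p = 0.00015). Ccnb2, a second B-type cyclin (-0.21 ± 0.05), and Cks2, a CDK-binding subunit (-0.41 ± 0.10), were lower too. Ccnb1 and Ccnb2 have annotated pseudogenes that could take or give reads, and 12.5% of Ccna2 exon bases overlap Exosc9 on the other strand.

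Of the mitotic kinases and the chromosomal passenger complex, only the kinase genes Aurkb and Plk1 were called, both lower. The passenger complex carries Aurora B to the inner centromere on INCENP, survivin (Birc5) and borealin (Cdca8). Aurkb had 35.2, 37.8 and 34.6 CPM with ADP-Hep and 50.0, 50.4 and 52.9 CPM with PBS (log2 change -0.51 ± 0.06, edgeR adjusted p = 2.3e-08). Its 3 partner genes were not called, at -0.05 ± 0.05 for Incenp, -0.05 ± 0.06 for Birc5 and 0.07 ± 0.05 for Cdca8. Plk1, a kinase of mitotic entry and spindle assembly, changed by -0.31 ± 0.06 (edgeR adjusted p = 5.9e-05). Aurka, the centrosomal Aurora kinase (0.09 ± 0.06), and Tpx2, its spindle activator (-0.01 ± 0.05), were not called. Tpx2 levels were 133, 126 and 132 CPM with ADP-Hep and 132, 126 and 134 CPM with PBS, with overlapping libraries.

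The 5 spindle checkpoint genes split. The checkpoint delays anaphase until every kinetochore is attached. Bub1b, which encodes its effector BUBR1, had 76.6, 74.9 and 70.7 CPM with ADP-Hep and 122, 113 and 120.0 CPM with PBS, with no overlap. Ttk, the kinase MPS1 that starts the signal, fell likewise (-0.64 ± 0.07, edgeR adjusted p = 2.5e-08), with 17.5, 16.7 and 15.7 CPM with ADP-Hep and 25.3, 24.9 and 27.7 CPM with PBS. Bub3, the partner of BUB1 and BUBR1, rose instead: it had 102, 103 and 103 CPM with ADP-Hep and 85.2, 89.4 and 89.7 CPM with PBS (log2 change 0.22 ± 0.05, edgeR adjusted p = 0.00017). The kinase gene Bub1 (0.06 ± 0.05) and Mad2l1, which encodes the CDC20 inhibitor MAD2 (0.04 ± 0.05), were not called.

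At the kinetochore 4 of 7 genes fell. The NDC80 complex binds microtubules through 4 subunits. Ndc80 itself had 36.4, 38.3 and 33.6 CPM with ADP-Hep and 50.7, 47.7 and 54.1 CPM with PBS (log2 change -0.49 ± 0.06, edgeR adjusted p = 8.3e-08), and Spc24 changed by -0.28 ± 0.09. Their partners Nuf2 (-0.06 ± 0.06) and Spc25 (0.03 ± 0.07) were not called. Cenpf, a large corona protein, changed by -0.31 ± 0.06 and Cenpe, the kinetochore kinesin, by -0.14 ± 0.05; both were called lower. Cenpa, the centromeric histone H3 variant, was not called (-0.09 ± 0.05, edgeR adjusted p = 0.15), although its 3 ADP-Hep libraries (78.2, 76.7 and 74.8 CPM) lay below the 3 PBS libraries (82.1, 82.5 and 80.0 CPM).

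The kinesins gave the largest share of falls. Of 10 kinesin and spindle genes 8 fell, with a median log2 change of -0.42; these 8 were all of the kinesins in the group. Kif23, the motor of the centralspindlin complex at the division midzone, had 64.4, 63.1 and 55.0 CPM with ADP-Hep and 95.5, 98.0 and 98.7 CPM with PBS. Kif11, the motor that separates spindle poles, had 113, 105 and 102 CPM with ADP-Hep and 145, 147 and 159 CPM with PBS. In each the libraries did not overlap, with log2 changes of -0.67 ± 0.05 for Kif23 and -0.50 ± 0.05 for Kif11 (edgeR adjusted p = 4.1e-11 and 5.4e-09). Kif20b (-0.58 ± 0.07), Kif15 (-0.55 ± 0.06), Kif22 (-0.51 ± 0.05) and Kif2c (-0.35 ± 0.05) followed, and Kif20a (-0.15 ± 0.05) and Kif4 (-0.15 ± 0.06) fell least. Exons of Kif20a overlap Cdc23 on the other strand over 29.3% of their bases, and those of Kif4 overlap Pdzd11 over 15.1%. Kif4 and Kif22 also have annotated pseudogenes that could take or give reads. The spindle genes that are not kinesins were not called: Hmmr, a hyaluronan-binding spindle protein, had 125, 118 and 110.1 CPM with ADP-Hep and 114, 112 and 130.3 CPM with PBS. Nusap1, which bundles spindle microtubules, had 103, 93.9 and 86.8 CPM with ADP-Hep and 88.8, 89.7 and 106 CPM with PBS. In both genes the groups overlapped.

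Sister separation and cytokinesis held the other genes that rose. Pttg1 (ENSMUSG00000020415, chr11:43420250-43426251 on the minus strand in mm10) encodes securin, the inhibitor of separase. It had 17.5, 19.6 and 19.9 CPM with ADP-Hep and 12.2, 12 and 11.6 CPM with PBS. No library overlapped, and it had the largest rise of the 52 genes (log2 change 0.67 ± 0.08, edgeR adjusted p = 1.4e-07). Separase itself (Espl1) fell (-0.19 ± 0.06), as did the APC/C activator Cdc20 (-0.22 ± 0.05) and Cdca3, a mitotic entry factor (-0.32 ± 0.05). Ube2c, the ubiquitin-conjugating enzyme of the APC/C, was not called (0.12 ± 0.06, edgeR adjusted p = 0.063), and 22.8% of its exon bases overlap Tnnc2 on the other strand.

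Of the 4 cytokinesis genes 3 fell and Prc1 rose. Racgap1, the partner of KIF23 in centralspindlin, had 119, 115 and 116 CPM with ADP-Hep and 134, 139 and 146 CPM with PBS (log2 change -0.26 ± 0.05). Ect2, the RhoA exchange factor (-0.43 ± 0.06), and Anln, the ring scaffold anillin (-0.27 ± 0.05), also fell. Prc1, which cross-links midzone microtubules, had 126, 131 and 125 CPM with ADP-Hep and 111, 108 and 113 CPM with PBS (log2 change 0.20 ± 0.05, edgeR adjusted p = 0.00081). Its exons overlap Rccd1 on the other strand over 11.1% of their bases. Partners that act in 1 complex thus differed in direction or in call within condensin I, the passenger complex, NDC80 and the midzone proteins.

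**Figure D3:**
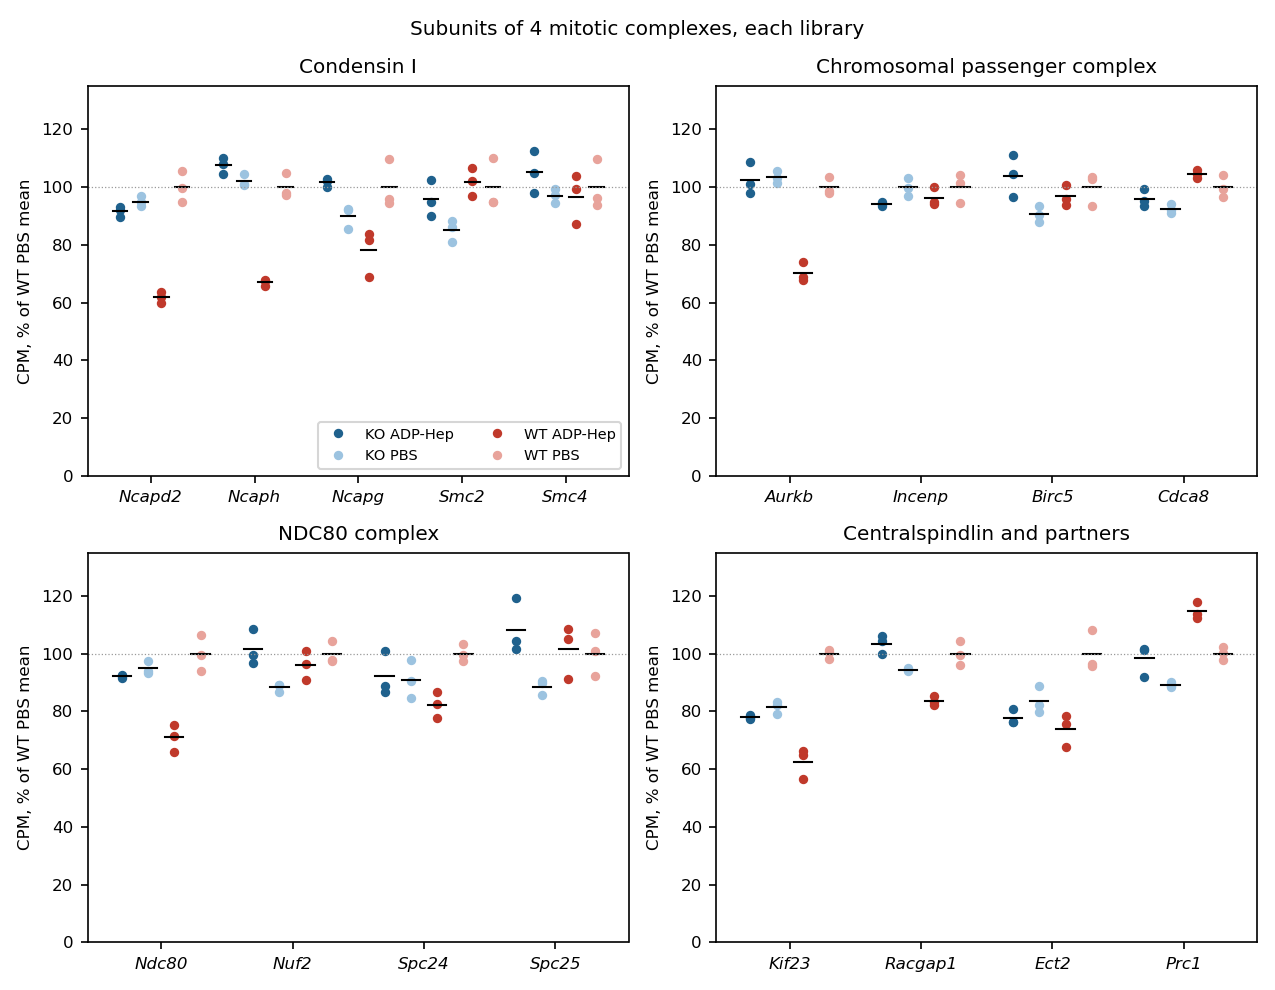
Level of each subunit in each library (points) as a percentage of the gene's WT PBS mean, with group means as bars, for condensin I, the chromosomal passenger complex, the NDC80 complex and centralspindlin with its partners. In WT ADP-Hep libraries Ncapd2, Ncaph, Aurkb, Ndc80 and Kif23 sat below all other libraries, while Smc2, Smc4, Incenp, Nuf2 and Spc25 overlapped the WT PBS libraries.

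In KO cells the same treatment moved fewer of these genes, and more of those it moved were higher. Of the 52 genes, 12 rose, 3 fell and 37 were not called. The rises covered 23.1% of the genes, against 13.7% of all genes tested; the falls covered 5.8%, against 15.3%. The median log2 change was 0.0029, and no gene changed by 0.5 or more on the log2 scale. Against a 1.5-fold threshold (edgeR glmTreat) 0 were called either way, against 0.922% of all genes lower and 0.440% higher, and the count was also 0 at an unadjusted p under 0.05. With library totals as the only scaling, 16 rose and 0 fell, but the median was then 0.047, against 0.049 for all genes tested. The counts also rested on single libraries: 6 rose without KO ADP-Hep replicate 1, without the unnumbered KO ADP-Hep library or without KO PBS replicate 1. The falls numbered 0 without the unnumbered library or without KO PBS replicate 2, and 1 without KO ADP-Hep replicate 1. The summed level was 5564 ± 107 CPM with ADP-Hep and 5470 ± 15.6 CPM with PBS (SD, n = 3 each). Progenitor markers summed to 21.1 to 23.5 CPM with ADP-Hep and 25.7 to 27.7 CPM with PBS, with 2 of 7 tested called lower and 0 higher. Neutrophil markers summed to 265 to 275 CPM with ADP-Hep and 336 to 363 CPM with PBS, with 5 of 7 tested called lower and 0 higher. Their part in the result was not tested.

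Of the 12 genes that rose in KO cells, 7 were not called in WT cells, 3 rose and 2 fell there. Hmmr (ENSMUSG00000020330, chr11:40701395-40733422 on the minus strand in mm10) rose most: it had 122, 111 and 122 CPM with ADP-Hep and 94.6, 97.2 and 96.8 CPM with PBS. Every ADP-Hep library lay above every PBS library (log2 change 0.30 ± 0.06, edgeR adjusted p = 0.00047). Spc25 (0.29 ± 0.07), Nusap1 (0.28 ± 0.07) and Mad2l1 (0.21 ± 0.05) rose as well, and these and Hmmr were the 4 rises that passed with each library left out in turn. Nusap1 had 117, 106 and 110.0 CPM with ADP-Hep and 88.2, 92.4 and 94.4 CPM with PBS. The genes with opposite calls in the genotypes were Ccna2 and Racgap1. Ccna2 had 154, 148 and 161 CPM with ADP-Hep and 132, 139 and 137 CPM with PBS (0.19 ± 0.06, edgeR adjusted p = 0.014). Racgap1 had 146, 139 and 148 CPM with ADP-Hep and 133, 131 and 132 CPM with PBS (0.13 ± 0.05, edgeR adjusted p = 0.034). The other rises were Smc2, Birc5, Bub3, Nuf2, Pttg1 and Prc1, with log2 changes between 0.13 (Bub3) and 0.26 (Pttg1).

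The falls in KO cells were small. Bub1b had 98.3, 98.1 and 96.4 CPM with ADP-Hep and 109.6, 112 and 106 CPM with PBS, with no overlap (-0.16 ± 0.05, edgeR adjusted p = 0.012). Cdc25b had 90.4, 97.2 and 85.7 CPM with ADP-Hep and 100.3, 108 and 96.6 CPM with PBS, and these libraries overlapped (-0.16 ± 0.05, edgeR adjusted p = 0.026). Cdc20 was the other (-0.15 ± 0.05, edgeR adjusted p = 0.04). All 3 had fallen in WT cells.

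**Figure D4:**
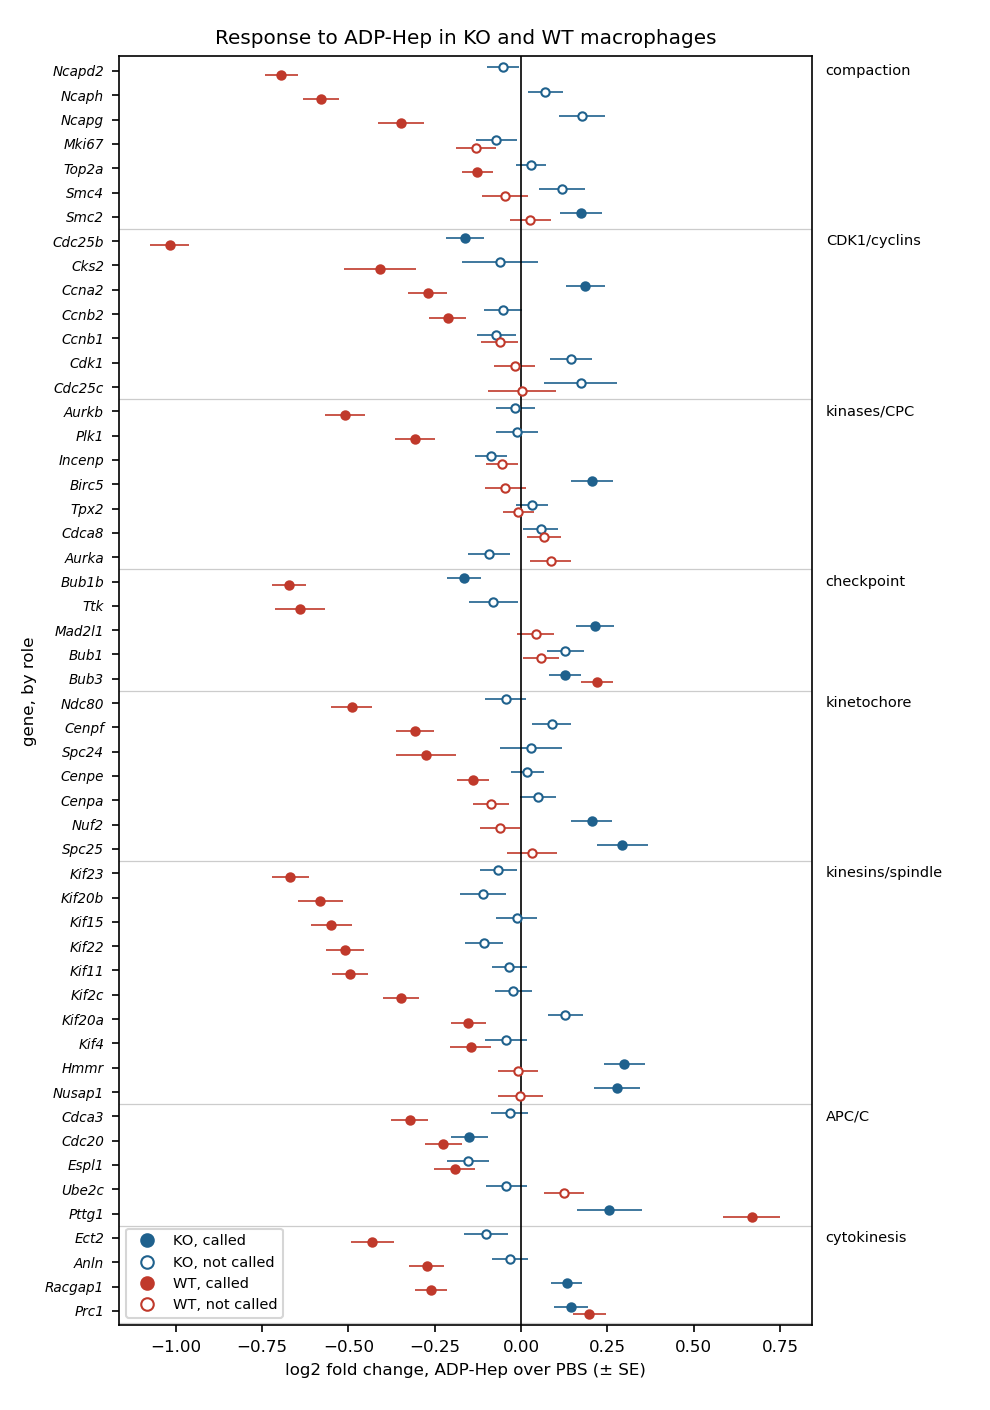
Log2 fold change of ADP-Hep over PBS (± SE) for each of the 52 genes in KO cells (blue, upper point of each row) and WT cells (red, lower point), by role; filled points passed the test. Cdc25b lies at -0.16 in KO and -1.02 in WT cells, Hmmr at 0.30 in KO and -0.01 in WT cells, and Pttg1 lies right of 0 in both.

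The difference between the responses was tested as an interaction, computed as the WT response minus the KO response, so that a negative value means a change further down in WT cells. Of the 52 genes, 29 were lower and 1 was higher. The negative calls covered 55.8% of the genes, against 24.9% of all genes tested; the positive call covered 1.9%, against 24.6%. The median was -0.26, against -0.01 for all genes tested. With library totals as the only scaling it was -0.42, against -0.16 for all genes tested, and 41 were lower and 0 higher. Against a 1.5-fold threshold (edgeR glmTreat) 1 of the 52 genes was called lower, a smaller share than the 5.76% of all genes. Higher calls numbered 0, against 6.69% of all genes, with the same counts at an unadjusted p under 0.05. The count of 1 higher became 2 without KO ADP-Hep replicate 1, without KO PBS replicate 1 or without WT ADP-Hep replicate 2. Of the 30 genes that fell in WT cells, 24 had a negative interaction, and 20 of these 24 were not called in KO cells. The other 4 were Ccna2 and Racgap1, which rose in KO cells, and Cdc25b and Bub1b, which fell in both. The remaining 5 negative interactions were Birc5, Nuf2, Spc25, Nusap1 and Hmmr, which rose in KO cells and were not called in WT cells. The KO response, the interaction and KO against WT with PBS share the KO PBS libraries, so these comparisons are not independent. For these 5 genes, in the order named, KO minus WT was -0.15, -0.18, -0.18, -0.05 and -0.31 with PBS. With ADP-Hep it was 0.10, 0.08, 0.08, 0.23 and -7.98e-05.

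Cdc25b had the most negative interaction, with responses of -0.16 ± 0.05 in KO and -1.02 ± 0.06 in WT cells (difference -0.85 ± 0.08, edgeR adjusted p = 1.4e-09). Ncaph and Ncapd2 came next, at -0.65 ± 0.07 for Ncaph and -0.64 ± 0.07 for Ncapd2 (edgeR adjusted p = 3.7e-08 and 1.2e-08). In KO cells Ncapd2 had 179, 182 and 175 CPM with ADP-Hep and 182, 189 and 185 CPM with PBS, and Ncaph had 73.3, 77.3 and 75.8 CPM with ADP-Hep and 70.9, 73.5 and 70.8 CPM with PBS. Kif23 (-0.60 ± 0.08), Bub1b (-0.51 ± 0.07) and Kif11 (-0.46 ± 0.07) were next among the 6 with the smallest p (edgeR adjusted p = 3.3e-07, 1.1e-06 and 8.7e-06). By role, 9 of 10 kinesin and spindle genes had a negative interaction, 5 of 7 kinetochore genes, 4 of 7 compaction genes and 3 of 4 cytokinesis genes. The other roles had fewer: 3 of 7 mitotic kinase and passenger genes, 2 of 7 CDK1 and cyclin genes, 2 of 5 checkpoint genes and 1 of 5 sister-separation genes.

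Pttg1 had the single positive interaction, a call that was lost with library totals as the only scaling. It had 12.6, 13.1 and 11.8 CPM with ADP-Hep and 10.8, 9.77 and 10.9 CPM with PBS in KO cells, so it rose in both genotypes (0.26 ± 0.09 in KO and 0.67 ± 0.08 in WT cells; difference 0.41 ± 0.13, edgeR adjusted p = 0.0085). Bub3 and Prc1 also rose in both, and their differences were not called (0.09 ± 0.07 for Bub3 and 0.05 ± 0.07 for Prc1). For 5 genes that fell in WT cells and were not called in KO cells, namely Ccnb2, Cks2, Cenpe, Kif4 and Espl1, the difference was not called either, and nor was that of Cdc20, which fell in both. The 12 genes not called in either response had no called difference: Mki67, Smc4, Cdk1, Ccnb1, Cdc25c, Aurka, Tpx2, Incenp, Cdca8, Bub1, Cenpa and Ube2c.

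With PBS alone, KO cells already held slightly less of some mitotic RNAs than WT cells. This comparison uses the same PBS libraries as both responses and the interaction, so it is not independent of them. Of the 52 genes, 14 were lower and 0 higher by edgeR. At an unadjusted p under 0.05, 31 were lower and 0 higher, and DESeq2 and limma-voom also called 0 higher. The lower genes made up 26.9% of the 52, against 5.82% of all genes tested, and 5.57% of all genes were higher. The log2 difference, KO minus WT, was negative for 47 of the 52, with a median of -0.13, and none reached 0.5. Without KO PBS replicate 1 the count was 8, and against a 1.5-fold threshold (edgeR glmTreat) 0 were called either way, also at an unadjusted p under 0.05, against 0.130% of all genes lower and 0.122% higher. The summed level was 5470 ± 15.6 CPM in KO cells and 5822 ± 72.1 CPM in WT cells (SD, n = 3 each), or 94.0% of the WT level. Progenitor markers summed to 25.7 to 27.7 CPM in KO cells and 33.6 to 36.5 CPM in WT cells, with 3 of the 7 tested called lower and 0 higher. Neutrophil markers summed to 336 to 363 CPM in KO cells and 316 to 346 CPM in WT cells, with 2 of 7 tested called higher and 1 lower. Of 11 macrophage markers 3 were higher and 0 lower. The part of these markers in the result was not tested. The labels used here do not say whether the KO and WT marrow came from littermates, so genotype and source of the marrow cannot be told apart.

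The genes with the smallest p here were not those that led the WT response, apart from Kif23. Hmmr had 94.6, 97.2 and 96.8 CPM in KO cells and 114, 112 and 130.3 CPM in WT cells, with no overlap (-0.31 ± 0.06, edgeR adjusted p = 0.00097). Tpx2 had 107, 112 and 110.4 CPM in KO cells and 132, 126 and 134 CPM in WT cells (-0.26 ± 0.05, edgeR adjusted p = 0.00046). Kif23 had 77.2, 81.2 and 79.9 CPM in KO cells and 95.5, 98.0 and 98.7 CPM in WT cells (-0.29 ± 0.05, edgeR adjusted p = 0.00047). These 3 lay wholly below the WT libraries, as did Anln (-0.22 ± 0.05), Ccna2 (-0.24 ± 0.06), Cdca3 (-0.23 ± 0.05) and Ect2 (-0.26 ± 0.06). These 7 passed with each library left out in turn. The other 7 were Smc2, Ccnb1, Ccnb2, Plk1, Bub1, Nuf2 and Prc1, between -0.24 and -0.17 on the log2 scale. Cdc25b, the leader of the WT response, had 100.3, 108 and 96.6 CPM in KO cells and 103, 109 and 102 CPM in WT cells and was not called. Mki67 had the most positive difference, 0.09 ± 0.06, also not called (edgeR adjusted p = 0.4).

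Under ADP-Hep, KO cells held more of 21 of the 52 genes than WT cells and less of 7. The higher genes made up 40.4% of the 52, against 32.8% of all genes tested, and the lower genes 13.5%, against 32.0%. With library totals as the only scaling the split was 37 higher and 1 lower, and the median over all genes tested was then 0.17, against 0.01 with TMM. Against a 1.5-fold threshold (edgeR glmTreat) 1 of the 52 genes was called higher, a smaller share than the 8.83% of all genes. Lower calls numbered 0, against 9.14% of all genes. At an unadjusted p under 0.05 by glmTreat, 2 were higher and 0 lower. This comparison uses the same WT ADP-Hep libraries as the WT response, so the 2 are not independent. Progenitor markers summed to 21.1 to 23.5 CPM in KO cells and 15.4 to 17.5 CPM in WT cells; of 7 tested, 1 was higher, Sox4, and 4 were lower. Neutrophil markers summed to 265 to 275 CPM in KO cells and 294 to 310.3 CPM in WT cells, and of 7 tested 1 was higher and 5 were lower. The part of these markers in the result was not tested. Cdc25b had 90.4, 97.2 and 85.7 CPM in KO cells and 53.4, 50.9 and 50.3 CPM in WT cells, the largest difference (KO minus WT 0.81 ± 0.06, edgeR adjusted p = 2.6e-12). Ncaph (0.68 ± 0.05), Ncapd2 (0.57 ± 0.05), Aurkb (0.54 ± 0.06) and Ttk (0.46 ± 0.07) came next.

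The 7 genes lower in KO cells under ADP-Hep came from several roles. Pttg1 had 12.6, 13.1 and 11.8 CPM in KO cells and 17.5, 19.6 and 19.9 CPM in WT cells (-0.60 ± 0.08, edgeR adjusted p = 6.1e-07). Ccnb1, Tpx2 and Prc1 were lower in KO cells under both treatments, at -0.20, -0.22 and -0.22 with ADP-Hep and -0.19, -0.26 and -0.17 with PBS. Ube2c (-0.27 ± 0.06) was lower as well, and so were Bub3 (-0.14 ± 0.05) and Cdca8 (-0.12 ± 0.05), for which the sign turned under library totals (0.02 for Bub3 and 0.03 for Cdca8). Ccna2 and Kif23 were lower in KO cells with PBS but higher with ADP-Hep. Kif23 had 75.4, 75.8 and 76.7 CPM in KO cells and 64.4, 63.1 and 55.0 CPM in WT cells with ADP-Hep.

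Genes around this programme moved in the same treatment. A further list of 48 G2 and mitosis genes, not among the 52, had 33 lower and 2 higher in WT cells with ADP-Hep, and a median of -0.26. These were 68.8% and 4.17% of the list, against 31.6% and 31.9% of all genes tested. In KO cells 2 were lower and 4 higher, or 4.17% and 8.33%, both below the 15.3% and 13.7% of all genes tested. Aspm, a spindle pole protein, averaged 70.2 ± 4.32 CPM with ADP-Hep and 118 ± 2.74 CPM with PBS in WT cells. Fbxo5, the APC/C inhibitor EMI1, averaged 11.7 ± 0.603 CPM with ADP-Hep and 23.1 ± 2.24 CPM with PBS, and Cdca2, which targets a phosphatase to chromatin, 24.0 ± 1.70 CPM with ADP-Hep and 42.7 ± 2.58 CPM with PBS. Of these 48 genes, promoters of 36 were matched, and 70.7% of those promoters held CHR.

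DNA replication genes fell alongside. Of 32 S-phase genes 24 fell and 1 rose in WT cells with ADP-Hep, with a median of -0.40; the falls covered 75% of the list and the rises 3.12%, against 31.6% and 31.9% of all genes tested. In KO cells 2 fell and 5 rose, or 6.25% and 15.6%, against 15.3% and 13.7%. Their summed level was 1071 ± 11.7 CPM with ADP-Hep and 1391 ± 37.3 CPM with PBS in WT cells, or 77.0% of the PBS level. The same ratio was 87.8% for the 52 genes and 82.7% for the further list. The difference between these ratios was not tested. Mcm6, a subunit of the replicative helicase, averaged 97.0 ± 1.05 CPM with ADP-Hep and 136 ± 5.51 CPM with PBS, and Mcm7, another, 30.2 ± 2.16 CPM with ADP-Hep and 54.9 ± 3.68 CPM with PBS. Cdt1 and Cdc6, which load the helicase, averaged 10.4 ± 0.339 and 2.77 ± 0.290 CPM with ADP-Hep in WT cells, against 38.6 ± 1.31 and 7.07 ± 0.462 CPM with PBS. Cdt1 was lower with ADP-Hep in KO cells too, where its log2 change of -0.65 was the lowest of the list. CHR was in 16.1% of the S-phase promoters and CCAAT in 67.7%.

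**Figure D5:**
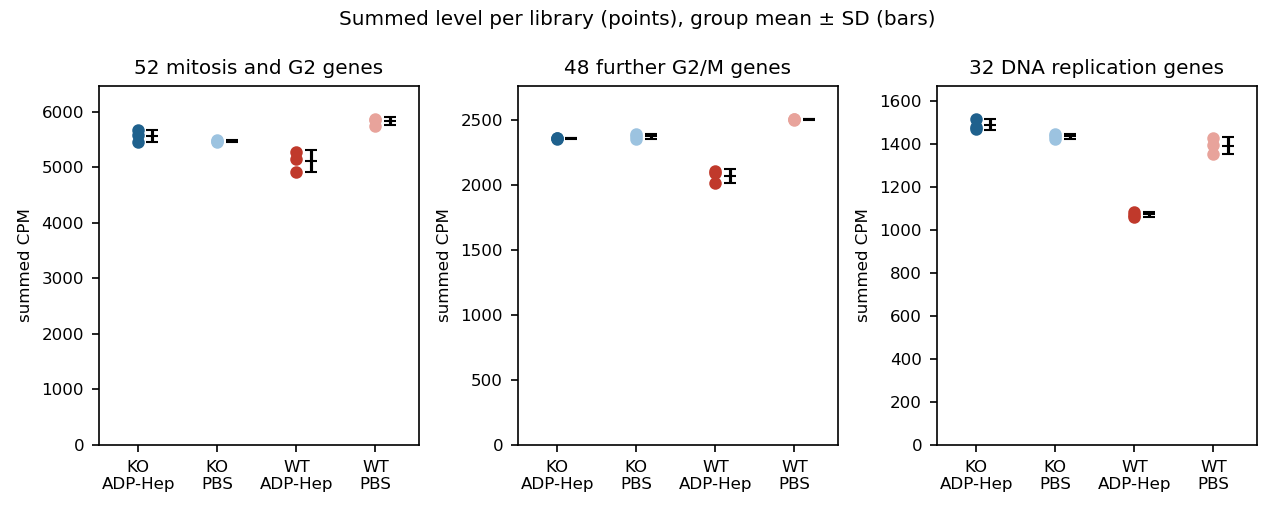
Summed CPM per library (points) and group mean ± SD (bars, n = 3) for the 52 genes, the 48 further G2 and mitosis genes and the 32 DNA replication genes. In each panel the WT ADP-Hep libraries are below all others; the KO PBS libraries lie below the WT PBS libraries for the 52 genes and the further list.

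Among 20 tested transcription regulators of these genes, 9 fell and 5 rose in WT cells with ADP-Hep. These shares were 45% and 25%, against 31.6% and 31.9% of all genes tested. Foxm1, which drives G2 genes, averaged 52.5 ± 1.53 CPM with ADP-Hep and 73.2 ± 3.88 CPM with PBS (-0.48 ± 0.05, edgeR adjusted p = 1.2e-08). It fell in KO cells too, to 62.1 ± 0.140 CPM with ADP-Hep, against 71.3 ± 0.854 CPM with PBS (-0.20 ± 0.05). E2f2, an activating E2F, fell to 17.3 ± 1.61 CPM with ADP-Hep, against 44.2 ± 1.86 CPM with PBS in WT cells, and E2f8, a repressive E2F, to 11.1 ± 0.419 CPM, against 26.8 ± 1.5 CPM. Rbl2, which encodes the DREAM pocket protein p130, averaged 60.7 ± 3.22 CPM with ADP-Hep and 92.4 ± 4.19 CPM with PBS. In KO cells E2f2 fell slightly (-0.22 ± 0.06), and E2f8 (-0.16 ± 0.07) and Rbl2 (0.10 ± 0.05) were not called.

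CDK inhibitors and the cyclins and CDKs of G1 moved in both directions. Of 15 such genes, 4 rose and 9 fell in WT cells with ADP-Hep, or 26.7% and 60%, against 31.9% and 31.6% of all genes tested. In KO cells 6 rose and 4 fell, or 40% and 26.7%, against 13.7% and 15.3%. Cdkn2b, the CDK4 inhibitor p15, averaged 11.3 ± 1.30 CPM with ADP-Hep and 0.931 ± 0.182 CPM with PBS in WT cells (3.60 ± 0.18). In KO cells it averaged 1.39 ± 0.167 CPM with ADP-Hep and 1.09 ± 0.346 CPM with PBS and was not called. Cdkn1a, the inhibitor p21, rose in both genotypes, by 0.46 ± 0.05 in KO and 1.00 ± 0.05 in WT cells on the log2 scale. In contrast Cdkn1b, the inhibitor p27, fell in both, with log2 changes of -0.26 in KO and -0.87 in WT cells, as did Cdk4, at -0.32 in KO and -0.55 in WT cells. A list of 12 genes held checkpoint and CDK1-inhibiting kinases, and also Cdc25a and the Gadd45 and Btg genes. Of these 12 genes, 7 rose and 3 fell in WT cells, or 58.3% and 25%, against 31.9% and 31.6% of all genes tested. In KO cells 2 rose and 3 fell, or 16.7% and 25%, against 13.7% and 15.3%. Wee1, which phosphorylates CDK1 to hold it inactive, averaged 16.7 ± 0.810 CPM with ADP-Hep and 40.1 ± 1.00 CPM with PBS in WT cells. Its level was lower with ADP-Hep in KO cells as well. The DNA damage kinases Chek2 (-0.88 ± 0.06) and Atm (-0.90 ± 0.07) also fell in WT cells. Cdc25a, the S-phase phosphatase of the same family as Cdc25b, rose: it averaged 26.9 ± 1.11 CPM with ADP-Hep and 14.2 ± 0.750 CPM with PBS (0.92 ± 0.08, edgeR adjusted p = 1e-10).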

How the data were processed

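RNA of 12 libraries was counted per gene. The authors deposited the counts as 1 table of whole numbers without normalization, and per the labels' protocols a stranded mRNA kit was used on total RNA. FastQC, Trim Galore, STAR, featureCounts, RSEM, DESeq2 and the builds mm10 and hg38 are named in the submitters' processing notes without roles or versions. The annotation release and whether counting used strand are not known here, so counts of overlapping genes or near-identical copies can share reads.

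Columns were assigned by name, and none of the per-sample columns was left out; 1 KO ADP-Hep column had a number that matched no label and kept its group without a replicate number. Below a certain row the KO columns sit 1 row below the identifiers (Pearson r of WT and KO mean log2 counts 0.9965 in the rows used, 0.042 below the break). The first 37542 rows were used, leaving a margin of 100 rows, and 19207 were not; the break was found after the data were seen. Coordinates are from GENCODE M21 on mm10 (37490 of 37542 identifiers found, 37311 with the same symbol).

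Tests used R 4.3.3, edgeR 4.0.16 (TMM, filterByExpr, robust quasi-likelihood, 1 fit of 4 group means to 12261 genes, Benjamini-Hochberg adjusted p under 0.05 over all genes) and limma 3.58.1. The SE is the size of the log2 change divided by the square root of F, an approximation. The biological coefficient of variation was 4.81%. No label says that replicates came from separate animals; p-values therefore measure only how far these libraries spread, perhaps for technical reasons. Chi-square per degree of freedom between replicates was 1.93 to 10.1, so no pair matched within sampling noise. The model was tested on simulated data. Alternatives were other scalings, tests (DESeq2 1.42.0, limma-voom, glmTreat), filters, rows, a replicate block and each library left out.

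The genes and lists were chosen with earlier results of these data known. Values are given for the 3 most abundant genes of each role, the extremes of each comparison, up to 6 genes with the smallest p in the interaction and in KO against WT with PBS, and up to 4 genes of each further list; other genes are counted and named beside them. Of the listed genes, 1 (Lin54) was not used here.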

Additional observations from a re-analysis of the deposited data

Results flagged for a closer look

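For 30 of the 52 genes the response to ADP-Hep differed between KO and WT cells by the interaction term of the edgeR fit, which is a test of the difference itself. Values are the WT response minus the KO response, in log2 units ± SE, over 3 libraries in each group. A positive value was found for Pttg1 (0.41 ± 0.13). The negative values furthest from 0 were those of Cdc25b (-0.85 ± 0.08), Ncaph (-0.65 ± 0.07), Ncapd2 (-0.64 ± 0.07), Kif23 (-0.60 ± 0.08), Ttk (-0.56 ± 0.10), Kif15 (-0.54 ± 0.09), Ncapg (-0.52 ± 0.09) and Bub1b (-0.51 ± 0.07). Values between -0.5 and -0.3 or close to these bounds were found for Aurkb (-0.49 ± 0.08), Kif20b (-0.47 ± 0.09), Kif11 (-0.46 ± 0.07), Ccna2 (-0.46 ± 0.08), Ndc80 (-0.45 ± 0.08), Kif22 (-0.40 ± 0.08), Cenpf (-0.40 ± 0.08), Racgap1 (-0.39 ± 0.07), Ect2 (-0.33 ± 0.09), Kif2c (-0.33 ± 0.07), Hmmr (-0.31 ± 0.08), Spc24 (-0.31 ± 0.13) and Plk1 (-0.30 ± 0.08). The smallest were those of Cdca3 (-0.29 ± 0.08), Kif20a (-0.28 ± 0.07), Nusap1 (-0.28 ± 0.09), Nuf2 (-0.27 ± 0.08), Spc25 (-0.26 ± 0.10), Birc5 (-0.25 ± 0.08), Anln (-0.24 ± 0.07) and Top2a (-0.15 ± 0.06). No explanation of these differences was tested.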

How the results depend on the processing

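With DESeq2 size factors, the DESeq2 Wald test, limma-voom, other filters, no robust estimation, only the groups compared (not run for the interaction) and either treatment of the lower rows, each count of called genes stayed within 1.5 times that reported. With library totals only, the median over all genes moved to -0.12 in WT cells, 0.049 in KO cells, -0.16 for the interaction and 0.17 for KO against WT with ADP-Hep. That of the 52 genes moved to -0.28, 0.047, -0.42 and 0.25. Genes called higher and lower were then 16 and 0 in the KO response, 0 and 41 in the interaction and 37 and 1 in KO against WT with ADP-Hep, where signs turned for Incenp (0.12), Cdca8 (0.033), Bub3 (0.017) and Hmmr (0.15). The shift of all genes is part of that scaling. Against a 1.5-fold change (glmTreat) the higher and lower counts were 0 and 2 in the WT response, 0 and 0 in the KO response, 0 and 1 in the interaction, 0 and 0 in KO against WT with PBS and 1 and 0 with ADP-Hep, since most changes were small.

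Replicate numbers did not pair the libraries: same-numbered libraries correlated at -0.487 to 0.178 (5 pairs) and others at -0.390 to 0.444 (13 pairs). With the replicate block, in 11 libraries, the KO response had 3 higher and 0 lower, and other counts stayed within 1.5 times. With each library left out in turn, higher and lower counts ran from 3 to 3 and 27 to 31 (WT response), 6 to 15 and 0 to 4 (KO response), 1 to 2 and 25 to 31 (interaction), 0 to 0 and 8 to 17 (KO against WT with PBS) and 18 to 22 and 6 to 8 (the same with ADP-Hep). Where a count moved by over 1.5 times, the libraries are named beside it in the report. Why these counts moved was not tested. The lowest count of any of the 52 genes in a library was 100, so counting error was small beside the changes of 0.5 or more.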
